A study of Homo sapiens with 5 samples.

Results

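The comparison set 2 HEK293T lines lacking CFIm68 against 1 control library of unedited HEK293T cells, over every poly(A) site of each gene. HEK293T is a line derived from human embryonic kidney. Cleavage factor Im (CFIm) is a complex of CFIm25 (gene NUDT21) with CFIm68 (gene CPSF6) or CFIm59 (gene CPSF7). The knockout lines were made from HEK293T with CRISPR/Cas9 and are called cell line 1 and cell line 2 in the labels, which do not say which part of CPSF6 was edited or whether a line is 1 clone. All cells were grown in the same medium with no further treatment. Libraries were 3′ end libraries primed with oligo(dT), so that a read count at a position measures mRNA ends at that site. The deposited table lists 272248 distinct sites, of which 171818 held a read in the 3 libraries, and each site is classed by the authors as last exon, intron or upstream exon. All of a gene's sites were used, each under the first gene that lists it. Of these, 18842 sites of 6243 genes had enough reads to test a site's share of its gene's reads, and 14635 genes had enough to test their summed level.

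Most human genes have more than 1 poly(A) site, and the site used sets the length of the 3′ untranslated region. CFIm25 binds the RNA sequence UGUA upstream of cleavage sites, and CFIm68 and CFIm59 carry domains rich in arginine and serine that contact other 3′ end processing factors. CFIm is known as an enhancer of sites that carry UGUA, and loss of CFIm25 or CFIm68 is known to shift many genes to sites nearer the stop codon. Sites within introns or upstream exons end the transcript before its last exon and can change the coding sequence.

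Depth was 2924266 reads in the control library, 2727728 in CFIm68 knockout line 1 and 2078376 in line 2. Reads at mitochondrial sites made up 9.05%, 8.02% and 6.01% of these. The lines are the only replicates, and the spread in every test is that between lines of 1 genotype, shared with 2 CFIm59 knockout lines in the same table. The lone control was assumed to vary like them. Any difference between that 1 culture and HEK293T cells in general cannot be told apart from the knockout. Of the marker lists for other cell types, 2 of 7 epithelial genes (CDH1 and EPCAM) and 1 of 7 fibroblast genes (COL1A1) reached the filter on low counts. Their summed levels were 10.2 CPM (reads scaled to library size) in the control, against 16.7 and 9.77 in the lines for epithelial genes. For fibroblast genes they were 11.3 against 7.65 and 9.32. The other epithelial and fibroblast markers fell below the filter, as did PTPRC, CD3E, CD14, HBB and LYZ of the 7 blood genes. The level of the blood list is not reported here.

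CPSF6 was read first, as the check of the labels. It stood at 119.9 CPM in the control, against 48.0 and 45.7 CPM in the knockout lines, so both lines lay below the control. The fall was log2 -1.35 (SE 0.25, adjusted p = 0.00052 by the quasi-likelihood test of edgeR, adjusted after Benjamini-Hochberg, as for all adjusted p-values here). The reads that remained were spread unequally over its sites on chromosome 12. The first last exon site, at 69663450, held 57 reads in the control, against 52 and 50 in the lines, and its share rose from 17.9% to 37.7% and 48.5% (adjusted p = 0.000451). At 69663906 there were 26 reads in the control and 1 in each line (adjusted p = 0.00156). The last site, at 69668134, held 86 reads in the control, against 22 and 11 in the lines, and its share fell from 27.0% to 15.9% and 10.7% (adjusted p = 0.0286). That last call ended with DESeq2, with diffSpliceDGE, with lower count minimums, with last exon sites only and without line 2 or either CFIm59 line. An intron site at 69656756, singled out after its values were seen and too sparse to test, held 0 reads in the control, against 7 and 6 in the lines.

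The partner subunits differed in kind. CPSF7 rose in level from 59.8 CPM to 128 and 204 CPM (log2 1.47, SE 0.29, adjusted p = 0.000941), with the 2 lines well apart from each other and both above the control. Its 2 last exon sites lie 82 nt apart, and the last took 17.0% of reads in the control, against 17.7% and 15.7% in the lines. A site of CPSF7 is also listed under another gene. NUDT21 stood at 120 CPM in the control, against 140 and 135 CPM in the lines (adjusted p = 0.759), while its sites were redistributed. The last of its 5 sites, at 56463046 on chromosome 16, held 43.3% of reads in the control, against 15.8% and 12.2% in the lines (adjusted p = 2.16e-06). The site 202 nt after its first rose from 10.7% to 20.3% and 24.8% (adjusted p = 0.0162). Its first site stood at 27.6% in the control, against 45% and 39.3% in the lines (adjusted p = 0.0513).

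Across all sites, 2212 sites gained share in the knockout (11.7% of 18842) and 2467 lost share (13.1%), in 2445 genes. A site's share is its reads as a percentage of all reads of its gene, and the fitted log2 value is an odds ratio of the site against the rest of the gene. Shares within a gene sum to 100%, so a gain at 1 site lowers the others. Both lines lay on the same side of the control in 4675 of the 4679 called sites, a count that selection by the test favours. The calls were not spread evenly over the classes. Of 15719 last exon sites, 13.0% gained and 14.4% lost share, by medians of 18.2 and -19.1 percentage points. Of 2298 intron sites, 6.48% gained and 8.57% lost share, and of 825 upstream exon sites, 1.58% gained and 0.848% lost share. Tested last exon sites were also deeper, with a median of 19.0 reads per library against 9.20 for intron and 9.60 for upstream exon sites, and the part of depth in these percentages was not tested.

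Within last exons the direction followed the place of the site. Among 5272 genes with more than 1 tested last exon site, the last site (the most distal one) lost share in 1520 (28.8%) and gained in 100 (1.9%). The first site gained share in 1284 (24.4%) and lost in 120 (2.28%). The 4386 sites between them went both ways, with 14.6% gaining and 13.2% losing share. The last site's median share was 35.0% in the control, against 22.5% and 24.3% in the lines, and the first site's was 17.6% in the control, against 27.7% and 26.3% in the lines.

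**Figure D1:**
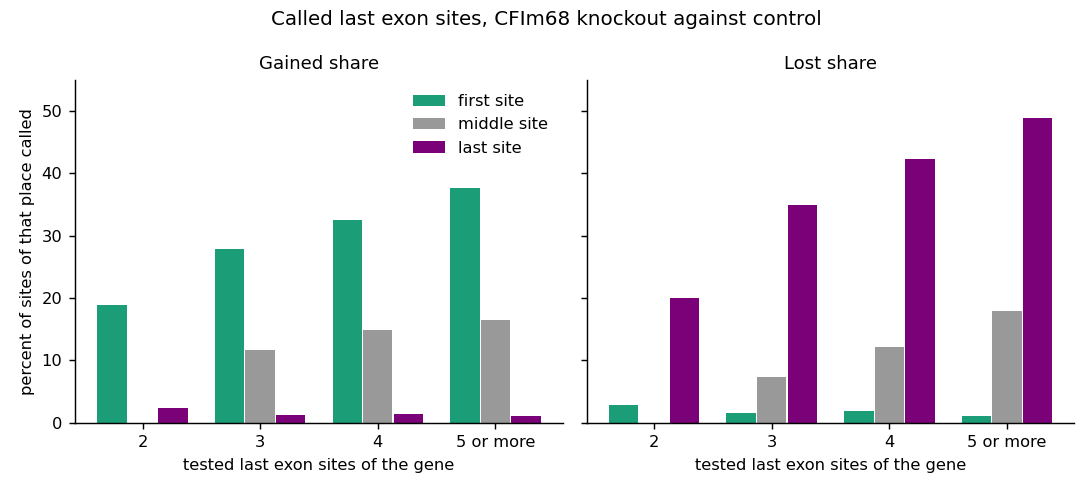
Percentage of tested last exon sites that gained (left) or lost (right) share of their gene's reads, by place of the site and number of tested last exon sites of the gene. The bar for loss of the last site grows from 19.9% in genes with 2 sites to 48.9% in genes with 5 or more, and that for gain of the last site stays at 2.42% or less.

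The loss at the last site was called more often in genes with more sites, as the bars by place of the site show. It was called in 19.9% of genes with 2 tested sites, 34.9% with 3, 42.3% with 4 and 48.9% with 5 or more. The first site gained in 18.8%, 27.9%, 32.5% and 37.7% of the same genes. Median reads per gene and library rose with the number of sites too, as 79, 105.6, 134.2 and 198.8, and the part of depth was not tested. In genes with 3 or more sites, the reads lost from the end did not always go to the start. Of 2384 such genes, 944 lost share at the last site. The first site gained in 498 of these (52.8%). A middle site gained in 366 (38.8%), and in 204 (21.6%) a middle site gained while the first did not. In 222 genes a middle site lost share along with the last, and in 242 of the 944 (25.6%) neither the first nor a middle site was called as gained.

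The genes named below are those with the largest gain or loss in percentage points among called sites of genes with 3 or more tested sites. UBQLN1, a shuttle that brings ubiquitinated proteins to the proteasome, has 4 such sites on the minus strand of chromosome 9. Its first site, at 86276325, held 38 of 395 reads in the control, a share of 9.62% (95% Wilson interval 7.09 to 12.9), and 77.9% and 74.9% in the lines. Its last site, 1442 nt further at 86274883, held 78.2% in the control, against 11.7% and 11.6% in the lines. The 2 sites between them did not pass the test, and 1 of them stood at 6.33% in the control, against 3.76% and 7.73% in the lines. At each end both lines lay on 1 side of the control, as the rule of choice required. The first site gave log2 4.92 (SE 0.42, adjusted p = 9.18e-18) and the last log2 -4.76 (SE 0.41, adjusted p = 1.45e-17).

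PUM2, a Pumilio protein that represses mRNAs by binding their 3′ untranslated regions, has 6 sites on chromosome 2, minus strand. The first, at 20451049, held 3 of 226 reads in the control (1.33%, interval 0.452 to 3.83), against 53.4% and 61.5% in the lines (log2 6.57, SE 0.59, adjusted p = 1.31e-16). The last, at 20448500, fell from 59.7% to 9.05% and 11.8% (adjusted p = 5.83e-12). None of the 4 sites between them passed the test. A site of PUM2 is listed under another gene as well, which also holds for PRRC1, STK38L, EPHA7 and OSBPL8 below, although none of the sites given here is such a site.

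ERO1L, the oxidase that drives disulfide formation in the endoplasmic reticulum, is the 1 named gain that is not a first site. Its second of 5 sites on chromosome 14, at 53110019, held 27.9% of reads in the control (interval 22.8 to 33.6), against 82.8% and 88.7% in the lines (log2 3.93, SE 0.40, adjusted p = 2.88e-14). The first site lies 111 nt upstream and stood at 6.87% in the control, against 7.53% and 3.40% in the lines. All 3 sites downstream lost share. The one at 53106780 fell from 38.5% to 4.03% and 3.77%, and the last from 15.3% to 0.806% and 0.377%.

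STK38L, the NDR2 kinase, lost 2 distal sites together. Its middle last exon site, at 27478020 on chromosome 12, fell from 43.8% to 11.4% and 6.25% (adjusted p = 7.4e-06). Its last, at 27478888, went from 15 of 89 reads to 0 of 114 and 0 of 80, which allow 2.63% and 3.75% at a floor of 3 reads. Its first site rose from 22.5% to 77.2% and 76.2% (adjusted p = 1.24e-08). Its intron site at 27418078 stood at 4.49% in the control, against 5.26% and 11.2% in the lines (adjusted p = 0.527).

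TMEM30A, the partner subunit of phospholipid flippases, moved to its middle site more than to its first. On chromosome 6 the last site, at 75962642, fell from 64.3% (interval 57.8 to 70.3) to 7.25% and 6.74% (log2 -4.57, SE 0.42, adjusted p = 4.62e-16). The middle site rose from 29.5% to 61.7% and 72.7% (adjusted p = 2.39e-06). The first, 2816 nt upstream of the last, rose from 1 read in the control (0.446%) to 18.1% and 12.4% (adjusted p = 6.55e-07). OSBPL8, an oxysterol-binding protein family member that moves lipids at membrane contacts, divided its gain in the same way. Its last site fell from 68.0% to 8.02% and 14.3%, its middle site rose from 1.94% to 42.6% and 36.7%, and its first from 0.971% to 19.8% and 14.3%. ESYT2, a tether between the endoplasmic reticulum and the plasma membrane, fell at its last site on chromosome 7 from 63.6% to 6.74% and 6.29% (adjusted p = 6.8e-16). Its middle site at 158526303 took most of that share, rising from 13.5% to 48.3% and 59.4%, and its 2 tested intron sites did not pass.

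**Figure D2:**
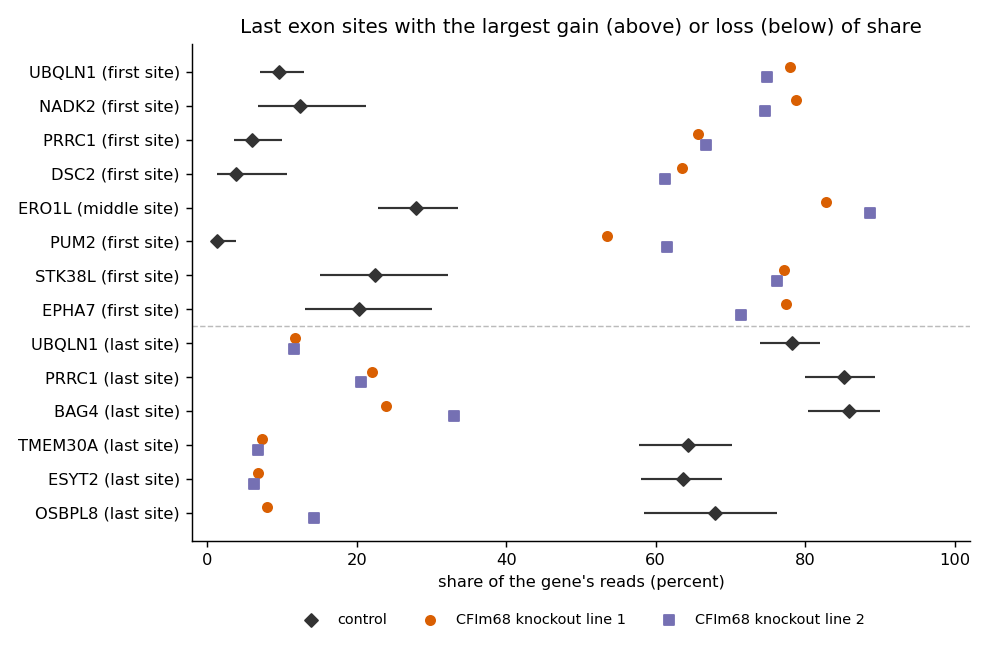
Share of the gene's reads (percent) at the named last exon sites in the control (diamond, with its Wilson 95% interval for counting error) and in CFIm68 knockout lines 1 (circle) and 2 (square); 8 gains above the dashed line and 6 losses below it. At every site both lines lie outside the control's interval, as in PUM2, where the control stands at 1.33% and the lines at 53.4% and 61.5%. The choice of the largest called changes favours this.

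The other named sites followed the pattern of the plotted shares. NADK2, the mitochondrial NAD kinase, rose at its first site on chromosome 5 from 12.3% to 78.8% and 74.6%. PRRC1 rose at its first site from 5.99% to 65.7% and 66.7% and fell at its last from 85.3% to 22.1% and 20.5%. DSC2, a desmosomal cadherin, rose at its first site from 3 of 78 reads (3.85%) to 63.5% and 61.2%. EPHA7, a receptor for ephrins, rose at its first site from 20.2% to 77.4% and 71.4% and fell at its last from 50% to 3.57% and 1.59%. BAG4, a co-chaperone of HSP70, fell at its last site on chromosome 8 from 85.9% to 23.9% and 33.0% (adjusted p = 1.59e-12). All 14 of these calls came from the same test, with adjusted p of 4.02e-08 or less, and their lines lay on 1 side of the control because the rule required it.

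Some sites were read in 1 group only. Of the sites that gained, 82 had no read in the control, 75 of them in last exons and 6 in introns. They entered the test through reads of the other libraries, so their number is no measure of how common such sites are. HIPK1, a nuclear kinase, was chosen after the values were seen. Its first site at 114516501 on chromosome 1 held 0 of 96 reads in the control, so the floor of 3 reads allows up to 3.12%. It held 68 of 133 reads in line 1 (51.1%) and 39 of 103 in line 2 (37.9%; adjusted p = 1.49e-10). The opposite was seen at 86 sites that lost share and had no read in either line, 80 of them in last exons. PDCD6IP, the ESCRT-associated protein ALIX, chosen in the same way, held 69 of 310 reads at its last site in the control (22.3%). It held 0 of 222 and 0 of 230 in the lines, which allow up to 1.35% and 1.30% (adjusted p = 2.7e-13). ACSL3, an acyl-CoA synthetase, held 41 of 223 reads at its last site in the control and 0 of 170 and 0 of 185 in the lines (adjusted p = 2.37e-10).

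To put these changes on a length scale, the mean position of last exon reads after the gene's first tested site was taken for 4748 genes whose sites span 10000 nt or less. This measure was chosen after the data were seen. The median over genes was 618 nt in the control, against 396 and 420 nt in the lines. Both lines ended nearer the first site than the control in 3198 genes (67.4%), and both ended further in 821 (17.3%). Among the 1413 genes of this set that lost share at the last site, the median was 1069 nt in the control, against 469 and 501 nt in the lines, a direction the choice of genes fixes. In the 84 that gained at the last site, it was 84.9 nt in the control, against 218 and 257 nt in the lines. The remaining 3251 genes, without a call at the last site, had medians of 433 nt in the control, against 352 and 375 nt in the lines. Both lines were shorter in 54.9% of them and longer in 22.9%.

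**Figure D3:**
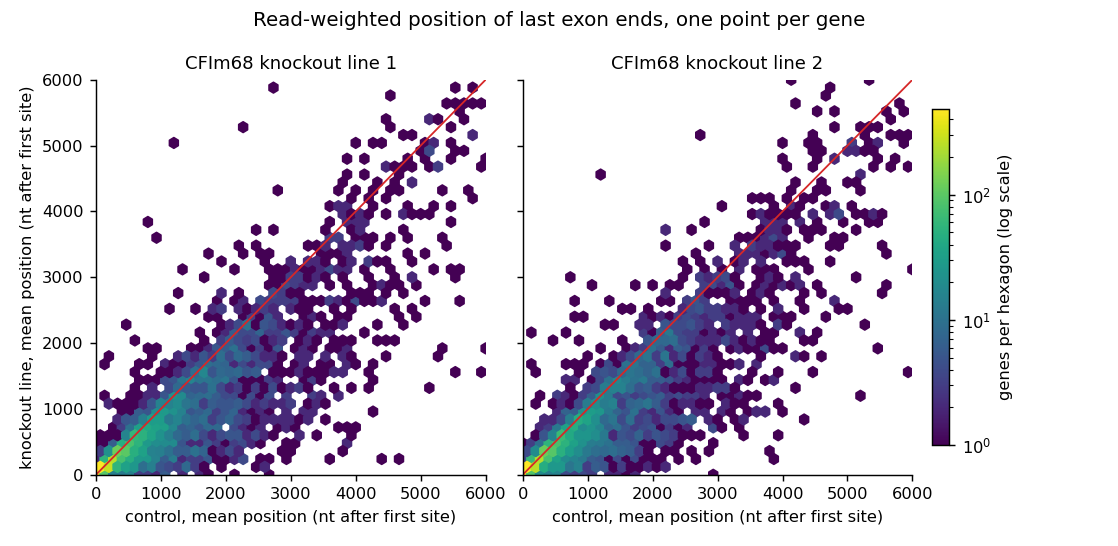
Mean position of last exon reads (nt after the gene's first tested site) in the control (horizontal axis) and in each CFIm68 knockout line (vertical axis), for 4748 genes binned in hexagons coloured by number of genes on a log scale. The red line marks equal positions, and most genes lie below it in both panels, with a median of 618 nt in the control, against 396 and 420 nt in the lines; 69 genes reach beyond the axes.

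The ends of the transcripts were then read for UGUA, the sequence CFIm25 binds. A genome of the build of the table (hg19) was not used here. Pairs of sites, the most gained and the most lost in a gene, were therefore matched to pairs of annotated transcript ends of GENCODE release 29 (build GRCh38) that lie equally far apart within 3 nt. Both ends had to carry a poly(A) signal (AATAAA or ATTAAA) in their last 50 bases. This matched 498 of 4907 pairs, some of which may match by coincidence, and the matching rule was chosen after the data were seen. UGUA, written TGTA below, was searched on the transcript strand in the last 100 bases of each end. It was present in 52.7% of 29245 distinct coding transcript ends with such a signal. In 115 matched genes whose proximal site gained and distal site lost share, 76.5% of the distal ends and 63.5% of the proximal ends held it. There, 37.4% of distal and 26.1% of proximal ends held 2 or more copies. In 315 genes with no call at either site, 54.9% of distal and 53.3% of proximal ends held it. In 63 genes with a call at 1 of the sites, 63.5% of distal and 65.1% of proximal ends held it, so there the distal ends were not ahead. In 5 matched genes the proximal site lost and the distal site gained share. These percentages are descriptions of annotated ends, and a match is not evidence of binding.

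The 5 matched pairs below with a large loss at the distal site, and CNOT10, a pair with a gain there, show how varied single genes are. Some matched pairs were left out of this choice, so those shown need not have the largest changes of all. Each line gives 30 bases, 5′ to 3′, of the annotated end, with TGTA in capitals or, where the 100 bases hold no TGTA, the poly(A) signal in capitals. All are from GENCODE release 29. ATF2, ESYT2, NADK2 and PREPL lie on the minus strand of chromosomes 2, 7, 5 and 2, and NR1D2 and CNOT10 on the plus strand of chromosome 3.
ATF2 proximal: tcaatgTGTAaatTGTAttataattcattg
ATF2 distal: atgttacacaaacTGTActattttctttta
ESYT2 proximal: tatgaaagatgaAATAAAgtattcaaaata
ESYT2 distal: acgtgacagtgcaTGTAtttattcaataaa
NADK2 proximal: ggggcaggcttaAATAAAggactaaatatt
NADK2 distal: caaccctatgtgAATAAAattactccactg
NR1D2 proximal: gacctttaagacaataaaagatTGTAggct
NR1D2 distal: ctgagaagtaatcTGTAtgtggggggaggg
PREPL proximal: tgatgctatctgAATAAAgttataagctcc
PREPL distal: attttgtctgctATTAAAtacttccaagcc
CNOT10 proximal: tggccattttagtTGTAtcacagcagaatg
CNOT10 distal: ttttgagccattaTGTAatatatgccatag

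ESYT2 has TGTA in its distal end and none in its proximal end. ATF2, a stress-activated transcription factor, has 2 copies in its proximal and 1 in its distal end, although its distal share fell from 78.2% to 20.8% and 20.3% (adjusted p = 1.08e-10). NR1D2, the nuclear receptor REV-ERB beta, has 3 proximal and 2 distal copies, and the proximal copy shown lies downstream of the AATAAA. The proximal site of NR1D2 had no read of 89 in the control and held 44.7% and 38.7% in the lines (adjusted p = 6.36e-10). NADK2 and PREPL have none in either window, yet the distal share of PREPL fell from 70.9% to 22.4% and 15.7%. CNOT10, a subunit of the CCR4-NOT deadenylase, has 1 copy in each. Its distal site, 159 nt after the proximal one, rose from 30.7% to 50.2% and 53.9% (adjusted p = 0.00641). The pairs shown therefore include larger counts at the proximal end as well as at the distal end, and they are too few to stand for the matched genes. Among the 115 matched genes whose proximal site gained and distal site lost share, 54 held more copies at the distal end. In 30 the proximal end held more, and in 31 the counts were equal. Among the 315 genes with no call at either site, these counts were 104, 97 and 114.

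Gene groups were read at their last tested site, beside the 28.8% of all genes that lost share there and the 1.9% that gained. Over all genes the median difference at this site was -5.66 percentage points. The part of depth in the counts of these groups was not tested. Groups and members were chosen with earlier results of these data known. In the other cleavage and polyadenylation factors, 5 of 10 members tested lost share at the last site and 0 gained, with a median of -7.62 points. CSTF1, a subunit of the cleavage stimulation factor, fell from 20.1% to 2.96% and 1.87% (adjusted p = 1.99e-05). PAPOLA, the main poly(A) polymerase, fell from 76.4% to 54.3% and 56.9% (adjusted p = 0.00132). Its gene level fell as well, from 281 CPM to 137 and 164 CPM (log2 -0.90, adjusted p = 0.018). PCF11, which links cleavage to transcription termination, fell from 46.7% to 14.3% and 24.3% (adjusted p = 0.0014), and CPSF2 from 7.37% to 0.541% and 1.13% (adjusted p = 0.00195). The calls of PAPOLA, PCF11 and CPSF2 at these sites ended with DESeq2.

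Among SR proteins, splicing factors with the same kind of domain as CFIm68, 7 of 11 lost share at the last site and 0 gained. Their median of -3.03 points was smaller in size than the -5.66 points of all genes. SRSF11 fell from 8.80% to 1.45% and 0.755% (adjusted p = 1.12e-07). SRSF6 fell from 41.5% to 21.0% and 13.6% (adjusted p = 7.78e-05), and its first of 4 sites rose from 35.4% to 57.5% and 61.3%. TRA2B fell from 38.7% to 18.6% and 18.5% and SRSF2 from 76.4% to 54.2% and 56.4%. The calls of SRSF6, TRA2B and SRSF2 ended with DESeq2. Of the kinases of SR proteins and the importins grouped with them, 2 of 5 lost share. TNPO1, an importin, fell from 50.7% to 26.5% and 29.7% and CLK4, a kinase, from 34.1% to 7.14% and 6.45%, both ended by DESeq2. SRPK1 and SRPK2, also named, did not pass, at 80% against 73.3% and 74.7% and at 32.4% against 20.2% and 14.8%.

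mRNA export factors gave 3 of 11 that lost share, near the percentage of all genes. NCBP2, the small cap-binding subunit, fell from 70.9% to 47.8% and 46.9%, NCBP1, the large one, from 32.4% to 16.2% and 14.8%, and GLE1, an export factor at the pore, from 82.1% to 58.7% and 68.1%. All 3 calls ended with DESeq2, and that of GLE1 also without line 1. ALYREF stood at 99.0% in the control, against 97.7% and 98.2% in the lines. Paraspeckle proteins gave 1 of 7, HNRNPK, from 7.26% to 1.19% and 1.82% (adjusted p = 1.16e-06). NONO, SFPQ and EWSR1 did not pass, NONO at 97.2% in the control, against 94.6% and 95.7% in the lines. Nuclear pore genes gave 9 of 17, but their median of -4.83 points was smaller in size than the -5.66 points of all genes. NDC1, a membrane nucleoporin, fell from 47.7% to 2.75% and 2.74% (adjusted p = 6.68e-15) while its first site rose from 34.0% to 89.8% and 87.0%. RANBP2, at the cytoplasmic side of the pore, fell from 11.2% to 0.306% and 0.379% (adjusted p = 6.36e-08). NUP50 fell from 73.2% to 35.8% and 50.9% and NUP98 from 60.1% to 31.2% and 29.7%, and both calls ended with DESeq2.

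Regulators that bind 3′ untranslated regions gave 9 of 16 that lost share at the last site and 0 that gained, with a median of -14.7 points. YTHDF3, a reader of methylated adenosine, fell from 64.9% to 9.71% and 8.08% (adjusted p = 4.87e-12). Its reads moved to 2 sites: a middle site rose from 7.02% to 46.3% and 50.5%, and the first, with 0 of 114 reads in the control, to 20.6% and 15.2%. TIA1, a stress granule protein, fell from 27.7% to 3.03% and 1.75% (adjusted p = 2.24e-08). CPEB4, which binds cytoplasmic polyadenylation elements, fell from 71.7% to 27.2% and 22.9% (adjusted p = 4.16e-05). PUM2, given above, is the other named member. Deadenylation and decay factors gave 5 of 17 lost, near the percentage of all genes, and 1, CNOT10, gained. CNOT6, a deadenylase, fell from 27.6% to 1.88% and 3.75% (adjusted p = 4.03e-09) and its paralogue CNOT6L from 70.9% to 26.2% and 13.0%, with a fall in level from 29.7 CPM to 14.6 and 10.2 CPM. XRN1, the cytoplasmic exonuclease, fell from 44.2% to 7.14% and 12.5% and rose at its first site from 5.26% to 44.3% and 46.9% (adjusted p = 7.05e-07). CNOT8, another deadenylase, fell from 75.2% to 41.7% and 36.9%.

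Of genes known from earlier studies as CFIm targets, 7 of 14 lost share at the last site and 1 gained, with a median of -6.54 points. This list too was chosen with earlier results of these data known, so its count is not independent of them. The members named next all lost share, and the 1 that gained is not among them. VMA21, which helps assemble the vacuolar ATPase, fell from 73.7% to 13.3% and 20.7% (adjusted p = 1.27e-15). SYNCRIP, an RNA-binding protein, fell from 12.6% to 2.60% and 0.971%, and PPP6C, a phosphatase catalytic subunit, from 5.00% to 0 in both lines.

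Signalling and traffic genes were read in the same way. TGF-beta and BMP pathway genes gave 7 of 12 lost and 0 gained, with a median of -18.7 points. Among receptors, ACVR2A fell from 43.8% to 5.56% and 2.38% (adjusted p = 0.000282). Among the SMAD proteins that carry the signal, SMAD2 fell from 20.6% to 0.952% and 0 (adjusted p = 3.57e-05) and SMAD5 from 69.2% to 38.2% and 32.0%. SMURF2, a ubiquitin ligase of the pathway, fell from 45.2% to 10.6% and 21.2%. The calls of SMAD5 and SMURF2 ended with DESeq2, and that of SMURF2 without line 1. TGFBR2, the type II receptor, rose in level from 2.26 CPM to 13.2 and 11.5 CPM (log2 2.43, adjusted p = 0.00846). Wnt pathway genes gave 3 of 10, close to the percentage over all genes. BTRC, a ubiquitin ligase subunit, fell from 32.2% to 7.59% and 12.9%, GSK3B, the kinase, from 24.5% to 7.07% and 14.6%, and CTNNB1, beta-catenin, from 98.7% to 95.2% and 96.1%. All 3 calls ended with DESeq2, and that of GSK3B without line 1 or either CFIm59 line. DVL3 did not pass, at 33.7% against 17.3% and 22.8%. Factors of traffic between the endoplasmic reticulum and the Golgi gave 8 of 18, with a median of -7.11 points. TMED10, a cargo receptor, fell from 42.8% to 7.50% and 6.21% (adjusted p = 6.14e-12). SAR1B, the coat GTPase, fell from 15.4% to 1.46% and 1.76%, LMAN1, a lectin receptor, from 71.1% to 30.3% and 43.3%, and SEC24A, a coat subunit, from 65.3% to 17.9% and 23.2%.

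Calls in these groups also depended on the test and filter. With diffSpliceDGE, edgeR's test for exon use, the calls of CNOT6L, CNOT8, CPEB4, SMAD5, NUP50, NUP98, SRSF2, TNPO1, PAPOLA, PCF11, NCBP2, CLK4, CTNNB1, GLE1 and GSK3B at their last sites ended. Lower read minimums ended those of CLK4, NCBP1, CTNNB1, GLE1 and GSK3B, and that of GSK3B ended with the control and CFIm68 libraries alone. With last exon sites only, SRPK2 and NONO passed as losses.

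Intron sites were tested as a class, by a gene's intron reads as a percentage of its intron and last exon reads together. The class is that given by the authors. Whether each site so classed ends a transcript before its last exon, or lies in a 3′ untranslated region, was not tested. Of 3620 genes, this intron share rose in 37 (1.02%) and fell in 45 (1.24%). Over all tested genes the median share was 14.5% in the control, against 15.8% and 14.4% in the lines. At an unadjusted p under 0.05 there were 244 rises and 238 falls. Called rises had a median of 14.7 percentage points and called falls of -29.2 points. Of the 82 called genes, 39 have a site listed under another gene as well. The counts depend on both lines: they were 2 and 8 without line 1, 6 and 14 without line 2, and 3 and 6 with DESeq2.

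The largest rise was in HNRNPLL, a splicing regulator of the hnRNP L family on chromosome 2. Its intron sites held 13 of 124 reads in the control (10.5%, interval 6.23 to 17.1), 12 of 20 in line 1 (60.0%) and 16 of 23 in line 2 (69.6%; log2 3.97, SE 0.66, adjusted p = 5.6e-07). Last exon reads went from 111 to 8 and 7, and the gene's level fell as well, from 46.6 CPM to 6.95 and 10.2 CPM (log2 -2.46, adjusted p = 1.48e-06). In PURA, which encodes a protein that binds purine-rich nucleic acid, the sites classed as intron rose from 44.5% (53 of 119 reads) to 97.3% and 95.8% (log2 5.13, SE 0.59, adjusted p = 2.22e-14). Its level was 44.7 CPM in the control, against 50.7 and 42.2 CPM in the lines. AEBP2, a cofactor of the Polycomb complex PRC2, rose from 26.7% to 72.8% and 46.6%, with the lines far apart. The CFIm59 lines stood at 38.1% and 49.5% there, also above the control. Its main intron site at 19706200 on chromosome 12 held 0 reads in the control, against 38 and 24 in the lines. CAPN15, a calpain family gene, had all its intron reads at 1 site, at 589860 on chromosome 16, with 14 reads in the control, against 36 and 78 in the lines. SERGEF rose from 24.0% to 60.0% and 57.4%, GNAZ, a G protein alpha subunit, from 11.8% to 40.8% and 47.6%, SLC30A9 from 28.3% to 49.3% and 60.9%, and PTPLA, a dehydratase of fatty acid elongation, from 23.4% to 51.3% and 43.2%. Of these 8 rises, those of SERGEF, AEBP2, GNAZ, SLC30A9, PTPLA and CAPN15 ended with DESeq2 and, with that of HNRNPLL, without line 1. Lower read minimums ended those of SLC30A9, PTPLA and CAPN15, and higher ones those of AEBP2 and SLC30A9. That of PTPLA also ended with the control and CFIm68 libraries alone and without CFIm59 line 2.

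**Figure D4:**
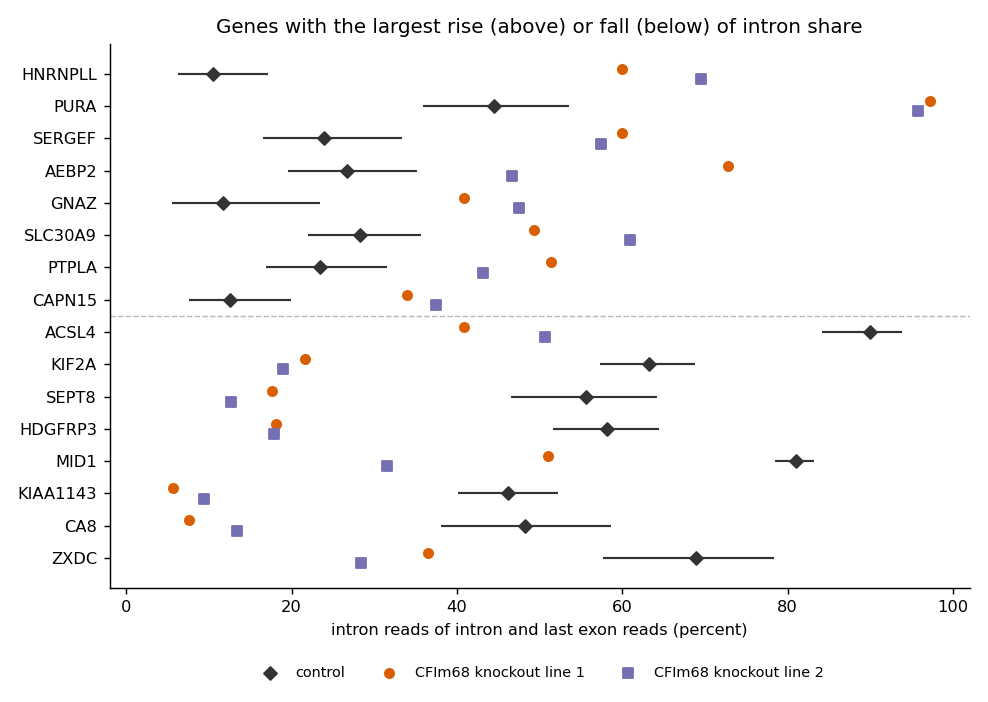
Intron reads as a percentage of a gene's intron and last exon reads for the 16 named genes, in the control (diamond, with its Wilson 95% interval for counting error) and in CFIm68 knockout lines 1 (circle) and 2 (square); 8 rises above the dashed line and 8 falls below it. The lines lie close together in HDGFRP3, at 18.1% and 17.9%, and apart in AEBP2, at 72.8% and 46.6%.

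The called falls of intron share had the larger median, as given above, although the rises of HNRNPLL and PURA exceeded each fall named here in percentage points. ACSL4, an acyl-CoA synthetase on the X chromosome, had 135 of 150 reads at sites classed as intron in the control (90.0%, interval 84.2 to 93.8), against 40.9% and 50.6% in the lines (log2 -3.44, SE 0.50, adjusted p = 5.02e-09). Of these reads over all libraries, 86.3% stood at 1 site, at 108884565, with 123 in the control, against 41 and 36 in the lines. KIF2A, a kinesin that depolymerises microtubules, fell from 63.3% to 21.6% and 18.9% (adjusted p = 1.32e-08). KIAA1143 fell from 46.1% to 5.71% and 9.42% (adjusted p = 1.41e-09), with 97.1% of its intron reads at 1 site, at 44790237 on chromosome 3, where 117 reads in the control stood against 8 and 10 in the lines. HDGFRP3 fell from 58.1% to 18.1% and 17.9%, and SEPT8, a septin, from 55.6% to 17.6% and 12.7%. CA8 fell from 48.3% to 7.55% and 13.4% and ZXDC from 68.9% to 36.5% and 28.4%. MID1, a microtubule-bound ubiquitin ligase, fell from 81.0% to 51.1% and 31.5%, again with the lines apart. The CFIm59 lines, read against the same control library, stood low as well in MID1, at 24.1% and 36.4%, and in CA8, at 22.8% and 17.2%. In MID1 intron reads went from 838 to 72 and 23, and last exon reads fell too, from 197 to 69 and 50. None of the intron reads of the 16 named genes stood at a site listed under another gene. The calls of SEPT8, MID1, CA8 and ZXDC ended with DESeq2, those of ACSL4, CA8 and ZXDC without line 1, and those of ZXDC, and of 6 of the rises (HNRNPLL, SERGEF, GNAZ, SLC30A9, PTPLA and CAPN15), without line 2.

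Upstream exon sites were tested as a class in the same way. Of 932 genes tested for their upstream exon share, 0 changed with edgeR (0.0%) and 0 with DESeq2. At an unadjusted p under 0.05 there were 35, with 21 up and 14 down, and the smallest adjusted p was 0.233. These sites held 1.26% of nuclear reads in the control, against 1.47% and 1.09% in the lines.

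Gene level was tested on reads summed over all sites of a gene. Of 14635 genes, 231 were higher in the knockout (1.58%) and 297 lower (2.03%), of which 218 and 207 changed by 2-fold or more. In these whole-culture libraries a change in the number of cells with a transcript and a change in its amount per cell cannot be told apart. With DESeq2 17 were higher and 41 lower, and all of these were among the edgeR calls. Loss of the last site went with little change in level. The 1520 genes that lost share there had a median log2 difference of -0.05 in level, with 1.64% higher and 3.42% lower. The 3652 genes without a call there had a median of -0.02, with 1.40% higher and 2.19% lower. For the 100 genes that gained at the last site the median was -0.17, with 3 higher and 9 lower.

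Among the higher genes with the smallest p, AGO2, the slicing Argonaute of small RNA silencing, rose from 18.0 CPM to 65.0 and 63.9 CPM (log2 1.83, SE 0.32, adjusted p = 0.000199). Among the sites listed under AGO2, the last held 25% in the control, against 19.8% and 23.6% in the lines, which did not pass. LSAMP, a neuronal adhesion protein, rose from 29.3 CPM to 104 CPM in each line, PLAT, tissue plasminogen activator, from 20.3 to 75.8 and 64.8 CPM, and ENO2, the neuronal enolase, from 35.3 to 122 and 91.9 CPM. PNMAL1 rose from 16.5 to 52.5 and 63.5 CPM and F11R, a junctional adhesion protein, from 9.02 to 47.3 and 28.4 CPM. The highest fold among the 10 was in the locus listed as AF003625.3, with 4 reads in the control, against 135 and 158 in the lines. Both lines lay on the same side of the control in all of these, as in all 528 called genes, a count that selection by the test favours. The lines themselves differed in SEPP1, selenoprotein P, which stood at 6.39 CPM in the control, against 69.8 and 16 CPM in the lines. The call of SEPP1 ended without line 1 and with DESeq2, which also ended that of F11R. Some of these genes stood away from the control in the CFIm59 lines too, which share that 1 control library. FBXO25, an F-box protein, read 6.02 CPM in the control library. It read 33.7 and 30.6 CPM in the CFIm68 lines and 40.2 and 36.5 CPM in the CFIm59 lines. ID3, an inhibitor of helix-loop-helix transcription factors, read 70.3 CPM, 175 and 211 CPM, and 381 and 423 CPM in the same order. SEPP1 read 140 and 202 CPM in the CFIm59 lines. AGO2 read 14.4 and 17.4 CPM there, beside 18.0 CPM in the control.

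**Figure D5:**
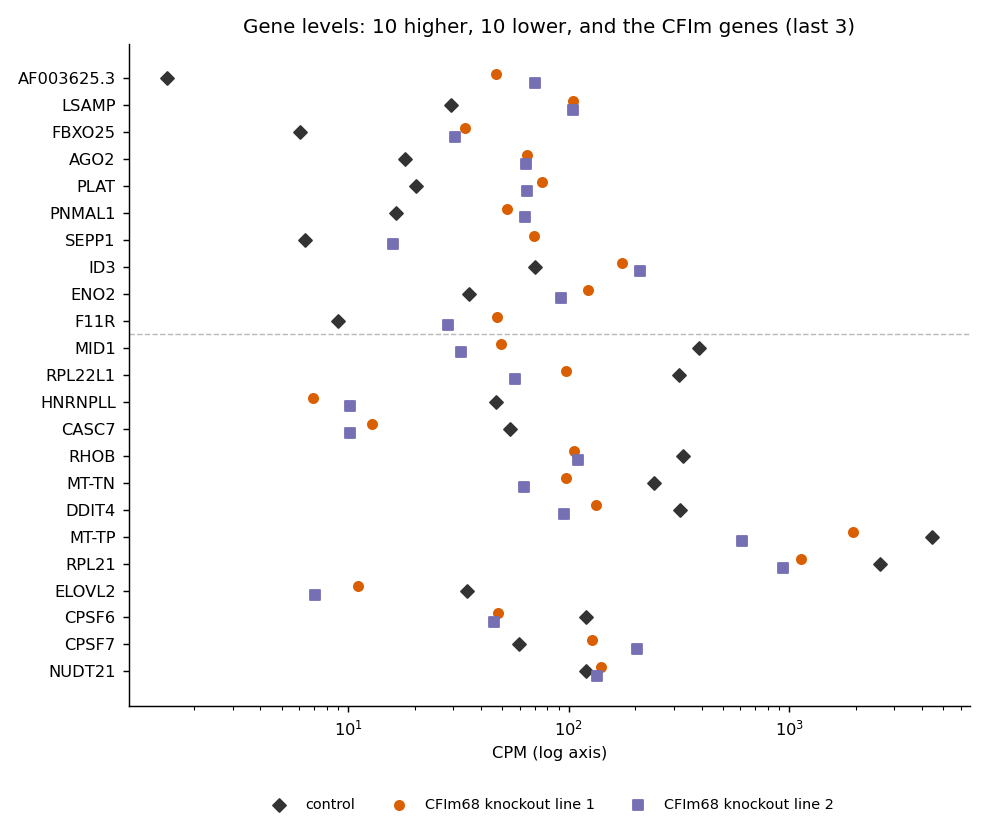
Level (CPM, log axis) of the 10 higher and 10 lower genes with the smallest p and of the 3 CFIm genes, in the control (diamond) and in CFIm68 knockout lines 1 (circle) and 2 (square). The lines lie together in LSAMP, at 104 CPM each, and apart in SEPP1, at 69.8 and 16 CPM.

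Among the lower genes, MID1 fell from 389 CPM to 49.3 and 32.4 CPM (log2 -3.24, SE 0.25, adjusted p = 1.97e-13). It read 47.4 and 41.4 CPM in the CFIm59 lines, against the same control library. DDIT4, an inhibitor of the growth kinase mTORC1, fell from 320 CPM to 133 and 95.0 CPM (adjusted p = 5.87e-05) and also stood low in the CFIm59 lines, at 49.2 and 46.0 CPM. HNRNPLL, by contrast, read 46.8 and 41.0 CPM there, beside the 46.6 CPM of the control and the 6.95 and 10.2 CPM of the CFIm68 lines. RPL22L1, a paralogue of the ribosomal protein RPL22, fell from 316 CPM to 97.0 and 57.3 CPM. RHOB, a small GTPase, fell from 329 to 106 and 110 CPM. In the CFIm59 lines RHOB read 184 and 180 CPM and RPL21 1066 and 1399 CPM, also below the control. ELOVL2 read 28.8 and 36.0 CPM there and CASC7 67.2 and 56.3 CPM. RHOB has a site that is also listed under another gene, and so have MID1, HNRNPLL, RPL21, MT-TN and MT-TP and, among the higher genes, AF003625.3, LSAMP, PLAT and SEPP1. ELOVL2, an elongase of polyunsaturated fatty acids, fell from 34.6 to 11.1 and 7.10 CPM, and CASC7, a noncoding transcript, from 54.1 to 12.9 and 10.2 CPM. CASC7 lies on the minus strand of chromosome 8, as does AGO2, which rose in both lines. Whether reads listed under CASC7 are ends of AGO2 transcripts was not tested. DESeq2 ended the calls of ELOVL2 and MT-TP. RPL21, from 2577 to 1136 and 935 CPM, has near-identical copies elsewhere in the genome, and the mitochondrial genes MT-TN and MT-TP lie in long shared transcripts, so that all 3 are uncertain as single genes. Replication-dependent histone genes, whose main mRNAs have no poly(A) tail, gave 2 higher of 7 tested and 0 lower. Over all 14635 genes tested, 1.58% were higher and 2.03% lower. HIST1H2BK rose from 51.5 CPM to 157 and 136 CPM (adjusted p = 0.000892) and HIST1H1C from 19.6 to 60.8 and 30.2 CPM (adjusted p = 0.046).

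Differences in level were also unequal between chromosomes, read over genes at 5 CPM or more in the control library. This filter leaves out genes low in the control, so it favours falls over rises in these medians and counts. Chromosome 1, with the most genes (1220), stood at log2 -0.12 in line 1 and -0.09 in line 2, with 0.90% higher and 2.62% lower. On chromosome 13 the median over 218 genes was log2 -0.36 in line 1 and -0.53 in line 2, with 0 genes higher and 17 lower (7.80%). On chromosome 10 it was -0.23 and -0.26, with 7 higher and 32 lower of 478. Chromosome 9 stood at 0.11 and 0.23 and chromosome 11 at 0.11 and 0.17, where 28 of 623 genes were higher and 7 lower. Chromosome 16 differed between the lines, at -0.20 and 0.09. CPSF7 lies on chromosome 11, and RPL21 on chromosome 13. The part of these shifts in single level calls was not tested, and a site's share is taken within its own gene.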

How the data were processed

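The authors deposited raw read counts per poly(A) site for 5 libraries: 1 control, 2 CFIm59 and 2 CFIm68 knockout lines. Per the submitters' processing notes, TopHat2 2.1.0, deepTools 2.4 and build hg19 were named without a role; no source used here says how sites were called or internal priming removed. Coordinates are as deposited, with an unstated base of counting. The labels give the read length as 150 in one place and 100 in another. Reads of a site stood under its first listing only, and the 17824 repeated listings held 0 reads. The counts are of reads, not molecules, so intervals and floors (3 reads) cover counting error only.

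Counts were fitted with edgeR 4.0.16 (R 4.3.3, glmQLFit and glmQLFTest) over all 5 libraries, contrast CFIm68 knockout minus control, with Benjamini-Hochberg adjustment over all features and a threshold of 0.05. Share fits had library terms, a site (or class) term and its interaction with group. Sites needed a mean of 5 reads and genes of 20. Gene levels used filterByExpr and TMM, and CPM are after TMM. DESeq2 1.42.0 ran without independent filtering, a choice made after its default left most gene level values without an adjusted p. Scripts were tested on simulated data with a planted log2 change of 2 in size. The site share test recovered 47.5% of 200 changed sites and the gene level test 80% of 200 changed genes. The intron and upstream exon share tests were not simulated. Alternatives are given in the closing section.

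Named were the 8 largest gains and 6 largest losses of last exon sites (gene mean of 50 or more), 8 rises and 8 falls of intron share, 10 higher and 10 lower genes of at least 2-fold by p, the CFIm genes and up to 4 members of each of the 17 lists by p. Symbols starting LOC, LINC, MIR, SNOR, RNU, RNA, CTD, CTC, CTA or CTB, clone names starting RP, AC or AL, antisense symbols and symbols at several loci were left out, a rule that does not cover clone names starting AF. The members and lists were chosen with earlier results of these data known. Results for 2 list members are not reported here.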

Additional observations from a re-analysis of the deposited data

How the results depend on the processing

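No paired analysis was possible because the control is 1 library and shares fewer than 2 replicate numbers with the knockout. No result reversed direction under any alternative run. Sites gained and lost were 2212 and 2467, against 1224 and 1259 with diffSpliceDGE, 542 and 779 with DESeq2, 871 and 991 with minimums of 20 reads per site and 100 per gene, and 1157 and 1273 without genes that have a site listed under another gene. Last sites lost and gained were 1520 and 100, against 757 and 43, 524 and 6, 704 and 77, and 845 and 54 in the same order, and 744 and 36 with minimums of 1 and 10 reads, where other sites become the last. All 1321 sites called by DESeq2 and 2475 of 2483 called by diffSpliceDGE were among the 4679. Leaving out 1 knockout line gave 1904 to 2204 sites gained, 1917 to 2455 lost, 1160 to 1495 last sites lost and 70 to 116 gained. Intron share rose in 37 and fell in 45 genes, against 3 and 6 with DESeq2, 22 risen with minimums of 1 and 10 reads, 8 and 21 with 20 and 100 reads, 20 and 22 without genes that have a site listed under another gene, and 2 to 30 and 8 to 42 without 1 line. The upstream exon share changed in 0 genes, and in 1 with minimums of 20 and 100 reads. Gene levels gave 231 higher and 297 lower, 17 and 41 with DESeq2, and 215 to 289 and 266 to 335 without 1 line. The cause of these differences was not tested beyond the smaller number of features or libraries in some. The lone control and a mean of 5 reads per site limit what could be called.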
